A study of Mus musculus with 16 samples.

Results

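Amylase is the pancreatic enzyme that hydrolyses starch, and the mouse carries its genes as a row of close copies. The 7 amylase genes Amy1, Amy2a1, Amy2a2, Amy2a3, Amy2a4, Amy2a5 and Amy2b were looked up by symbol in the RNA-seq tables of whole pancreas. The raw count table held 6 of the 7 among 24411 gene symbols, and Amy2a1 was not among the rows analysed here. Reads were counted on 3 of the 6, Amy1, Amy2a5 and Amy2b. The same 3 stood in the normalized table of 17548 genes and among the 13660 genes that passed the filter on low counts. Since the copies share sequence, their summed reads were analysed beside the single rows.

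The libraries came from 16 male C57BL6/J mice aged 12 weeks, 1 mouse per library, on ad libitum chow. Lean wild-type mice (WT, n = 5) and obese leptin-deficient Lep(ob/ob) mice (OB, n = 7) drank control water. A further 4 Lep(ob/ob) mice (CCKRi) received an antagonist of the cholecystokinin (CCK) receptors in the drinking water for 6 weeks, from the age of 6 weeks, as proglumide at 0.1 mg/ml (n = 2) or lorglumide at 0.05 mg/ml (n = 2). CCK is a peptide hormone that makes acinar cells release their enzymes. No WT mouse received an antagonist. On the origin of the WT mice the sources differ: the labels describe breeding in house from purchased stock, whereas the study's methods describe purchase, as for the Lep(ob/ob) mice. Leptin is missing from every cell of a Lep(ob/ob) mouse, which makes obesity, high insulin and the lack of leptin inseparable in this model. Final weights were 27.7 ± 3.22 g in WT, 51.0 ± 1.98 g in OB and 54.8 ± 2.22 g in CCKRi mice (SD). Sequencing was labelled with 2 batches, of which A held 3 WT and 4 OB mice and B held 2 WT, 3 OB and all 4 CCKRi mice.

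Pancreatic amylase is made by acinar cells, which fill most of the gland, store the enzyme in zymogen granules and secrete it into the duct. The Amy2 genes are the pancreatic ones, and Amy1 is known for its expression in salivary gland and liver. Amylase mRNA in acinar cells depends on insulin, falls in insulin deficiency and returns with insulin treatment. Transcription of acinar enzyme genes is driven by the PTF1 complex, made of Ptf1a, Rbpjl and an E-protein partner.

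All 7 genes lie on the minus strand of chromosome 3 in GRCm38, the build of the files (mm10). Amy2b is annotated at chr3:113147656-113156727, Amy2a5 at chr3:113247178-113258837, Amy2a4 at chr3:113279843-113291449, Amy2a3 at chr3:113312455-113324052, Amy2a2 at chr3:113345055-113356658, Amy2a1 at chr3:113529403-113532428 and Amy1 at chr3:113555710-113606699. GENCODE lists Amy2b as an unprocessed pseudogene, whereas RefSeq lists it as protein coding. The longest transcripts of Amy2a2, Amy2a3 and Amy2a4 were identical over all 3717 bases. Amy2b differed from each of the Amy2a transcripts from Amy2a2 to Amy2a5 at 38 of 1577 aligned bases, an identity of 97.59%. Amy1 was the most distant copy, with 89.46% identity to Amy2b and 85.1% to Amy2a2.

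The stretch below shows what a 100-base read can tell apart. It is the single-exon coding stretch of 100 bases in which Amy2b and Amy2a5 differed most, read 5′ to 3′ on the coding strand from the GENCODE transcripts. It lies in exon 2 of 10 of Amy2a5 (chr3:113258085-113258184) and Amy2b (chr3:113156111-113156210) and in exon 3 of 11 of Amy1 (chr3:113569429-113569528). Capitals mark the bases that differ from Amy2a5.
Amy2a5: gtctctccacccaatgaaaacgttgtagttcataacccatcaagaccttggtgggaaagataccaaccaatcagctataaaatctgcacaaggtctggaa
Amy2b: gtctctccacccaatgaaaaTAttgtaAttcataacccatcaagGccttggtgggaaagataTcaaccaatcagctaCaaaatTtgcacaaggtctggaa
Amy1: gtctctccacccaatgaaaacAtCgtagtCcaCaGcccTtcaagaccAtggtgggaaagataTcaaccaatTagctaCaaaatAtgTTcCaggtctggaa
Amy2a1, Amy2a2, Amy2a3 and Amy2a4 carry the Amy2a5 line without any difference, so 5 genes share it. Amy2b differed from it at 7 bases and Amy1 at 14 bases, and each of those lines occurred in no other gene's transcript.

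Over whole transcripts, every 100-base stretch was compared with all GENCODE transcripts. In Amy1, 1886 of 1886 stretches occurred in no other gene (100%), and in Amy2b 1309 of 1478 (88.57%). In Amy2a1 only 43 of 791 stretches were unique (5.44%), and in Amy2a2, Amy2a3 and Amy2a4 none of 3618. Amy2a5 had 1902 unique stretches of 3616 (52.6%), but 0 of the 1478 that fall inside its shorter RefSeq span. With 50-base stretches the unique share of Amy2b was 59.75% and that of Amy1 97.31%. The rows of Amy1 and Amy2b could thus collect reads of their own, whereas reads from the Amy2a copies could largely not be assigned to 1 gene.

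**Figure D1:**
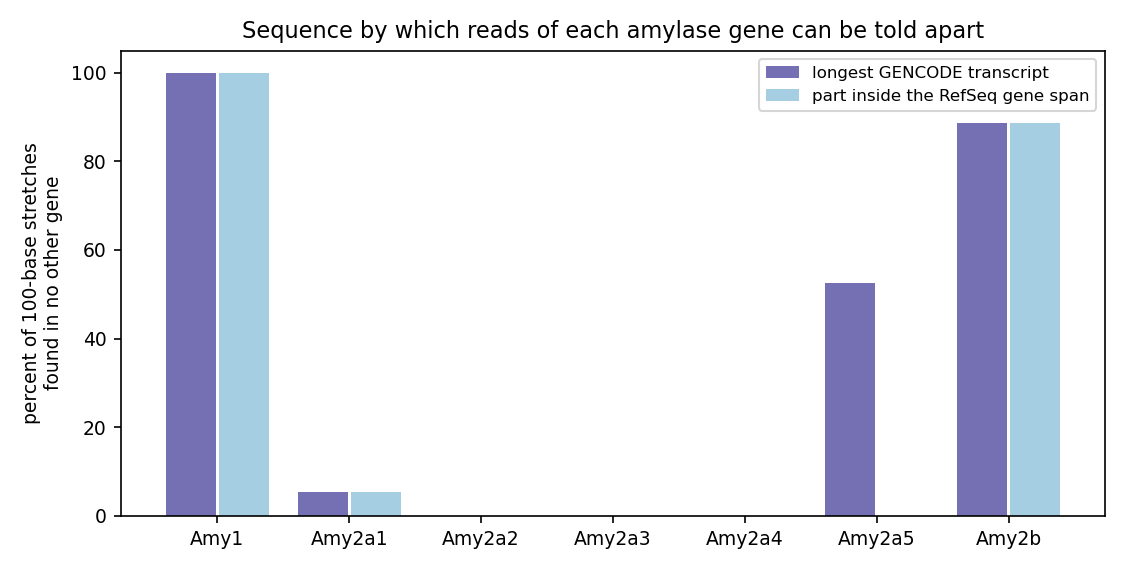
Percent of 100-base stretches of each amylase gene (x axis) that occur in the transcript of no other gene (y axis), for the longest GENCODE transcript (dark bars) and for its part inside the RefSeq gene span (light bars). Amy1 stands at 100% and Amy2b at 88.57% in both, Amy2a2, Amy2a3 and Amy2a4 at 0, and Amy2a5 at 52.6% in the first and 0 in the second.

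The counts followed this division. Amy2a2, Amy2a3 and Amy2a4 were listed with 0 reads in all 16 mice. A count of 0 allows up to 3 reads, or 0.0871 to 0.304 reads per M counts depending on the mouse, but as these genes have no stretch of their own this limits only reads assigned to 1 gene and not their mRNA. Amy2b had 7284 to 25986 reads per mouse, Amy1 had 1065 to 3885 and Amy2a5 had 34 to 284. How reads that fit several copies were counted is not given in the sources used here. Amy2b, Amy2a5 and the sum are therefore read below as what the counting assigned to them. The summed rows took 0.0411 to 0.261% of all counts per mouse. Amy2a reads that were assigned to no row would be missing from the sum and from ratios made with it.

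The start regions of Amy2b and Amy2a5 are shown because these were the rows that varied together within each batch (below). The RefSeq windows run from 250 bases before to 50 bases after the annotated start, at chr3:113156678-113156977 and chr3:113258650-113258949 of GRCm38.p6, minus strand. Capitals mark the hexamers CACCTG and CAGCTG, which are E-boxes of the class bound by basic helix-loop-helix factors, and TATAAA, the core of a TATA box, each searched on both strands.
Amy2b: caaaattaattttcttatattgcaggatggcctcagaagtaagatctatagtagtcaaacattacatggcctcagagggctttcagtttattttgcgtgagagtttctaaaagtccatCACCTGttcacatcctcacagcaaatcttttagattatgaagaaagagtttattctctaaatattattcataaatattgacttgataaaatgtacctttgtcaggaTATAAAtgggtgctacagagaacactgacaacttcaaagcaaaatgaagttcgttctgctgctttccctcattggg
Amy2a5: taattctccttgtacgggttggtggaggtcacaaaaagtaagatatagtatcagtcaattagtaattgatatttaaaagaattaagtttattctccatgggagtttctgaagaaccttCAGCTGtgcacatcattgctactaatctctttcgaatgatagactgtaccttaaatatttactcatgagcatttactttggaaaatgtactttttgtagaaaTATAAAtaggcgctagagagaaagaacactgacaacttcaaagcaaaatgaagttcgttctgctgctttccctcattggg
Both windows held 1 E-box 132 bases before the start, CACCTG in Amy2b and CAGCTG in Amy2a5, and TATAAA at 26 and 30 bases before it. The windows were 75.96% identical over 287 aligned bases, and their longest shared run was the last 58 bases. In the windows of Amy2a1 to Amy2a4 the annotated start lies further upstream and CAGCTG begins 6 bases after it. Of the 2 annotated Amy1 windows, 1 held TATAAA 63 bases before its start and neither held an E-box of these letters. Among all 32851 RefSeq mouse windows of this length, 20.21% held CACCTG, 16.3% CAGCTG and 13.62% TATAAA, so single matches are common.

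Total counts ran from 9.87 to 34.5 M per mouse, with at least 19.2 M in every mouse of batch A and at most 15.9 M in batch B. The 23 other digestive enzymes, defining products of the pancreas, took 33.1 to 62.0% of all counts in batch B and 62.1 to 68.1% in batch A. Salivary gland markers were nearly absent: 8 of 9 had at most 2 reads in any mouse, and Aqp5 had 2 to 60. Mice 417, 461, 463 (OB) and 69 (CCKRi, proglumide) stood apart from the other mice of their group and batch by high adipocyte, lymph node and macrophage markers, and the amylase differences and the counts of the gene lists are given with and without them. P-values measure the spread between mice. In whole tissue, fewer acinar cells and less amylase mRNA per acinar cell cannot be told apart.

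In WT mice Amy2b was the most counted amylase row. Its normalized counts (raw counts divided by 1 size factor per mouse) were 12531, 11432 and 12854 in the 3 WT mice of batch A. In batch B the 2 WT mice had 26262 and 27732. Both WT mice of batch B thus lay above all 3 of batch A, and within a batch the WT mice differed little.

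OB mice had lower Amy2b than WT mice of their batch. The 4 OB mice of batch A had 9241 (mouse 441), 9603 (472), 6418 (417) and 10939 (447). The 3 OB mice of batch B had 16900 (461), 8106 (463) and 24169 (464). Every OB mouse lay below every WT mouse of its own batch, although mouse 464 of batch B exceeded all WT mice of batch A.

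The CCKRi mean of Amy2b lay between the OB and WT means of batch B. The 2 proglumide mice had 15208 (mouse 69) and 24203 (72), and the 2 lorglumide mice had 26480 (74) and 20506 (76). Mouse 69 was the lowest of the 4, and the CCKRi range overlapped that of OB and that of WT mice in batch B. As the doses of the drugs differ, no comparison between them was made.

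Amy2a5 followed the same order at far lower counts. In batch A the WT mice had 224.8, 210.6 and 283.8 normalized counts and the OB mice 130.7, 125.3, 58.4 and 123.3. In batch B the WT mice had 102.2 and 95.2, the OB mice 60.9, 24.0 and 78.9, and the CCKRi mice 49.6 and 74.5 (proglumide) and 89.5 and 70.3 (lorglumide). Again every OB mouse lay below every WT mouse of its batch. All 4 CCKRi mice lay below both WT mice of batch B, but the share of all genes with that order was not counted. In reads, these values rest on 167 to 284 in WT and 84 to 161 in OB mice of batch A, and on 63 and 88 in WT, 34 to 70 in OB and 59 to 83 in CCKRi mice of batch B.

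Amy1 did not show the same order in both batches. In batch A the WT mice had 3760, 3468 and 3534 normalized counts, and the OB mice 2443, 3010, 1868 and 3171, all below WT. In batch B the WT mice had 2747 and 1538, and the OB mice 2847, 1569 and 2135. These ranges overlapped. The CCKRi mice had 1086 and 1334 (proglumide) and 1148 and 2064 (lorglumide), which put 3 of 4 below every other mouse of the study.

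The sum of the rows was carried by Amy2b. It reached 16515, 15112 and 16671 in WT and 11815, 12739, 8345 and 14233 in OB mice of batch A. In batch B it reached 29111 and 29365 in WT, 19809, 9699 and 26383 in OB, and 16344, 25612, 27718 and 22641 in CCKRi mice. In order of the group means, the sum was 11783 ± 2499 in OB of batch A (SD, n = 4), 16099 ± 859 in WT of batch A (n = 3), 18630 ± 8404 in OB of batch B (n = 3), 23078 ± 4949 in CCKRi (n = 4) and 29238 ± 180 in WT of batch B (n = 2). Among neighbours in this order, OB and WT of batch A did not overlap. CCKRi and WT of batch B (n = 4 and n = 2) did not overlap either, but the share of all genes with that order was not counted. WT of batch A fell inside the range of OB of batch B, which in turn overlapped CCKRi.

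**Figure D2:**
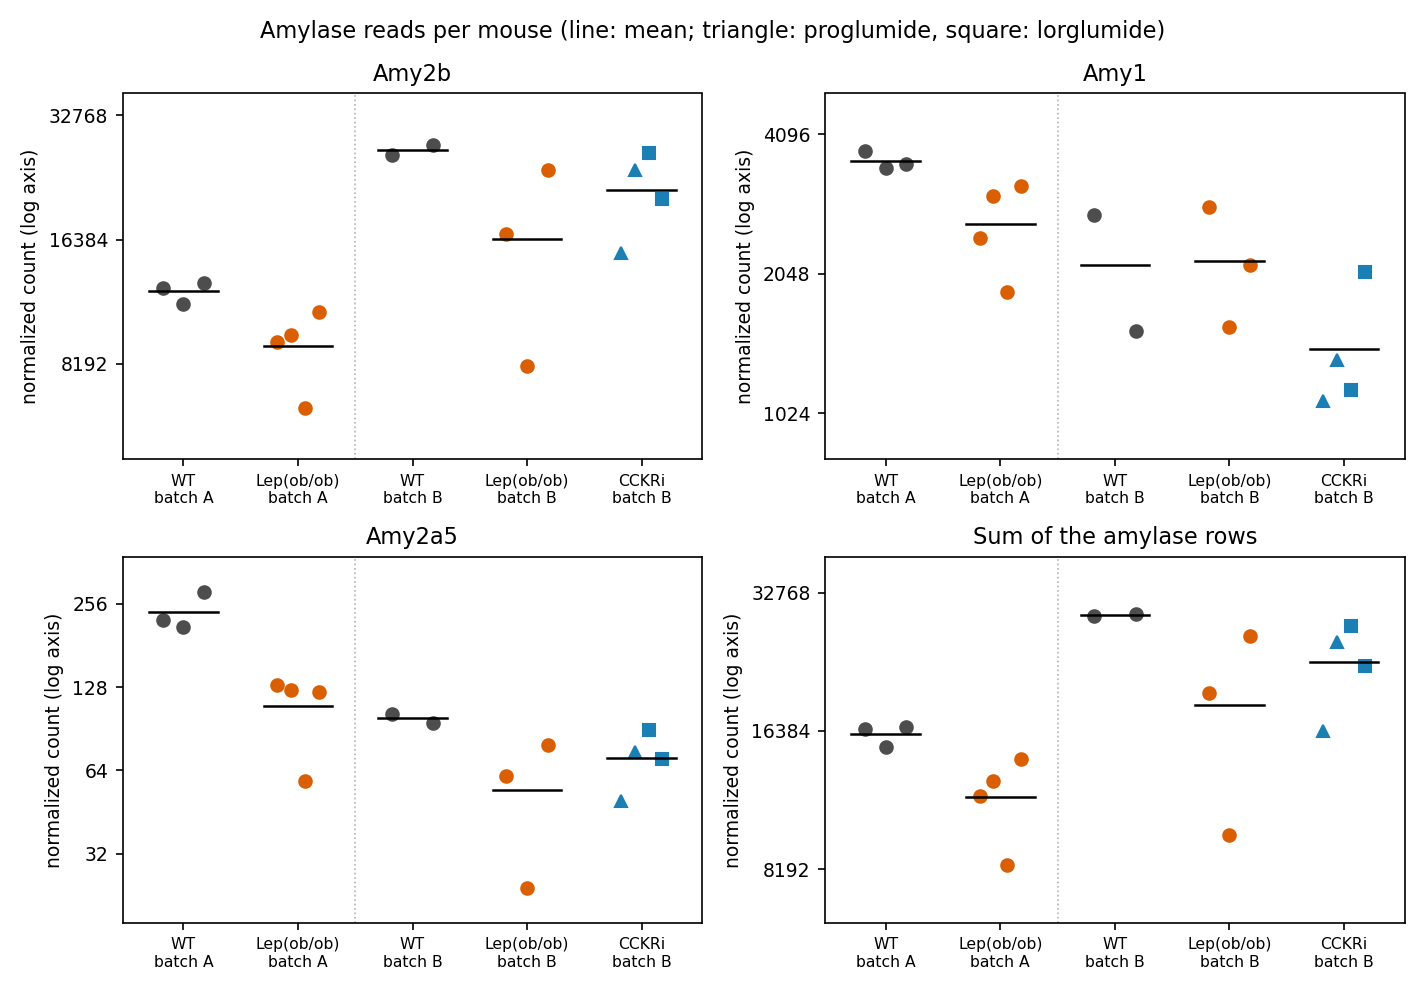
Normalized counts of Amy2b, Amy1, Amy2a5 and their sum (y axes, log scale) in each of the 16 mice, by group and sequencing batch (x axis). Points are mice, lines are means, triangles are proglumide and squares lorglumide. For Amy2b, Amy2a5 and the sum every OB mouse lies below every WT mouse of the same batch, and for Amy1 this holds in batch A only.

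Which row collected the amylase reads differed sharply between batches. In batch A, Amy2b held 75.4 to 78.2% of the amylase reads, Amy1 20.7 to 23.6% and Amy2a5 0.70 to 1.70%. In batch B, Amy2b held 83.6 to 95.5%, Amy1 4.14 to 16.2% and Amy2a5 0.248 to 0.351%. None of the 3 shares overlapped between batches. Reads on Amy2b were 45.3 to 109.9 times those on Amy2a5 in batch A, and 257.05 to 338 times in batch B. Within batch A this ratio was 45.3 to 55.7 in WT and 70.7 to 109.9 in OB mice, and within batch B it was 257.05 and 291 in WT and 277 to 338 in OB mice.

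**Figure D3:**
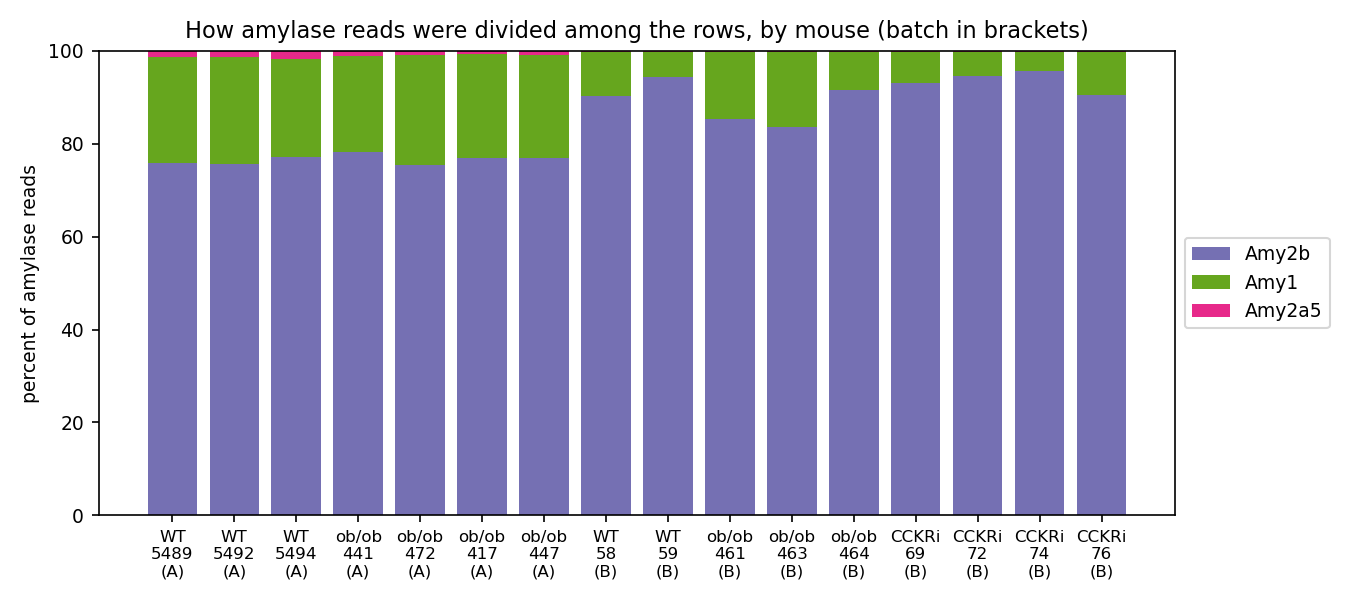
Percent of all amylase reads counted on Amy2b, Amy1 and Amy2a5 (y axis) in each mouse (x axis: group, mouse number and batch). Amy1 takes 20.7 to 23.6% in batch A, against 4.14 to 16.2% in batch B, and Amy2a5 takes at most 0.351% in batch B, too little to be visible.

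The batch term of the model, examined after the values had been seen, had opposite signs for the Amy2 rows. Between batch B and batch A, Amy2b differed by a log2 fold change of 0.97 ± 0.23 (SE, adjusted p = 0.00489) and Amy2a5 by -1.14 ± 0.27 (adjusted p = 0.00407). For Amy1 it was -0.47 ± 0.22 (adjusted p = 0.102) and for the sum 0.74 ± 0.22 (adjusted p = 0.0176). The batch term passed for 4883 of the 13660 genes. All values are from the quasi-likelihood test of edgeR, with p-values adjusted over all genes by the Benjamini-Hochberg method.

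Divided by the number of unique start positions, the counts of Amy2b also exceeded those of Amy1. All reads of a row entered these values, not only those on unique positions. In WT mice of batch A, Amy2b had a mean level of 938 normalized counts per 100 unique start positions within the RefSeq span and Amy1 had 229. In WT mice of batch B these levels were 2062 and 137. In CCKRi mice they were 1650 and 90.0. The ranges of both genes did not overlap in any group, and no such level can be given for Amy2a5, which has no unique position in that span.

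The genotype comparison asked whether amylase mRNA differs in the obese pancreas. Amy2a5 fell by 1.05 ± 0.25 on the log2 scale (SE) in OB against WT mice, to 0.483 of the WT level (edgeR, adjusted p = 0.0146, n = 7 against 5). Amy2b differed by -0.57 ± 0.23 (adjusted p = 0.147) and the sum by -0.54 ± 0.22 (adjusted p = 0.146), neither of which passed after adjustment in edgeR. Amy1 differed by -0.27 ± 0.21 (edgeR, adjusted p = 0.479), with a range on leaving out single mice from -0.43 (without WT mouse 59) to -0.17 (without OB mouse 417), none of which passed. Thus 1 of the 3 members tested was called, and it was lower, while 2 of the 3 (Amy2a5 and Amy2b) had an unadjusted p under 0.05. Of all 13660 genes tested 9.07% were called in either direction and 3.14% were called lower.

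Both batches gave lower mean Amy2a5 and Amy2b in OB mice. The OB mean of Amy2a5 was 0.456 of the WT mean in batch A and 0.553 in batch B. For Amy2b these ratios were 0.737 and 0.607, for the sum 0.732 and 0.637, and for Amy1 0.731 and 1.02. A test of the difference between the batches' genotype effects passed for none of the rows (edgeR interaction, adjusted p from 0.620 for Amy1 to 0.877 for Amy2a5), nor for the sum (0.832). Every OB mouse below every WT mouse of its batch, in both batches, was seen for Amy2a5 and Amy2b, and for 3.64% of the 13637 genes compared this way. The call of Amy2a5 was kept in each of the 16 fits that left out 1 mouse, with an adjusted p of 0.00681 to 0.0499 in edgeR. It was lost in batch B alone (-0.90 ± 0.44, adjusted p = 0.323) and without the batch covariate (-1.11, adjusted p = 0.0831), whereas batch A alone kept it (-1.10 ± 0.24, adjusted p = 0.0207).

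Markers of other cell types moved with the lowest amylase values. The 7 adipocyte markers, all detected in every mouse, had a mean log2 CPM of 5.46 in mouse 417 against 2.67 to 3.14 in the other OB mice of batch A. They had 7.04 in mouse 463 and 5.37 in mouse 461 against 4.49 in mouse 464, and 6.40 in mouse 69 against 4.03 to 4.69 in the other CCKRi mice. Mice 417, 463 and 69 had the lowest Amy2b, Amy2a5 and summed amylase of their group and batch. In WT mice the adipocyte score was 3.06 to 4.92 in batch A and 3.95 and 4.00 in batch B. The 6 macrophage markers had 4.98 in mouse 417, 6.40 in 463, 5.25 in 461 and 4.86 in 69, against 3.10 to 4.31 in the other 12 mice, and the 5 lymph node markers tested had 2.28 in mouse 463, within reach of the 2.09 of WT mouse 5492.

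Without these 4 mice the OB difference of Amy2a5 was -0.76 ± 0.15 (edgeR, adjusted p = 0.00177), so the call stood with a smaller difference. Amy2b then differed by -0.25 ± 0.13 (adjusted p = 0.253), Amy1 by -0.21 ± 0.18 (adjusted p = 0.538) and the sum by -0.25 ± 0.13 (adjusted p = 0.241). The differences of Amy2b and the sum were thus smaller than with all mice, and did not pass in either case.

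The antagonist comparison asked whether CCK receptor blockade in OB mice goes with another amylase level. In edgeR, CCKRi against OB mice differed by 0.35 ± 0.29 for Amy2b (SE, adjusted p = 0.566), by 0.48 ± 0.32 for Amy2a5 (adjusted p = 0.478), by -0.50 ± 0.26 for Amy1 (adjusted p = 0.378) and by 0.28 ± 0.27 for the sum (adjusted p = 0.633). None of the 3 members passed, and 0 had an unadjusted p under 0.05, while DESeq2 called 0 after adjustment and had 1 under 0.05 before it. Of all genes tested only 0.0586% were called in this comparison. In batch B the ratios of the means were 1.32 for Amy2b, 1.30 for Amy2a5, 0.645 for Amy1 and 1.24 for the sum, and the ranges of CCKRi and OB mice overlapped for all of them. Without mice 417, 461, 463 and 69 the Amy2b difference was 0.04 ± 0.18 and that of the sum 0.02 ± 0.18 (edgeR, adjusted p = 0.992 and 0.997), and Amy2a5 differed by 0.28 ± 0.21 and Amy1 by -0.35 ± 0.25 (adjusted p = 0.903 and 0.902). That leaves mouse 464, the OB mouse with the highest Amy2b, as the 1 OB mouse of batch B, so the spread around it is taken from the other groups. Leaving out single mice moved these estimates too. Without OB mouse 463 Amy2a5 was at 0.23, Amy2b at 0.09 and the sum at 0.04, while without OB mouse 464 they were at 0.75, 0.57 and 0.47. Amy1 was at -0.30 without OB mouse 461 and at -0.75 without CCKRi mouse 76. None of these passed. Macrophage markers moved with this comparison. All 6 were lower in CCKRi than in OB mice, by log2 fold changes of -1.60 to -0.97 (median -1.18) that did not pass in edgeR (adjusted p from 0.280 to 0.330), and their score in batch B was 3.45 to 4.86 in CCKRi and 4.12 to 6.40 in OB mice. Their part in the amylase values was not tested beyond the fit without mice 417, 461, 463 and 69.

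Against WT mice, the CCKRi group differed in edgeR by -0.22 for Amy2b (adjusted p = 0.782), by -0.57 ± 0.34 for Amy2a5 (adjusted p = 0.449), by -0.77 ± 0.28 for Amy1 (adjusted p = 0.140) and by -0.27 for the sum (adjusted p = 0.717). None passed after adjustment, where 5.57% of all genes did. Amy1 was the 1 member with an unadjusted p under 0.05, and DESeq2 likewise called 0 after adjustment and had 1 before it. Amy1 passed on leaving out WT mouse 59 (-1.02, edgeR, adjusted p = 0.0427) or CCKRi mouse 76 (-1.02, adjusted p = 0.0444). Amy2b was at -0.33 without OB mouse 463 and at -0.07 without CCKRi mouse 69, and the sum at -0.37 and -0.12 without the same mice, and none of these passed. Without mice 417, 461, 463 and 69 the differences were -0.21 ± 0.16 for Amy2b, -0.48 ± 0.20 for Amy2a5, -0.56 ± 0.23 for Amy1 and -0.24 ± 0.16 for the sum (edgeR, adjusted p = 0.520, 0.163, 0.157 and 0.450), so none passed there either. The 3 comparisons share mice, since OB mice enter both the first and the second, and WT mice the first and the third.

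**Figure D4:**
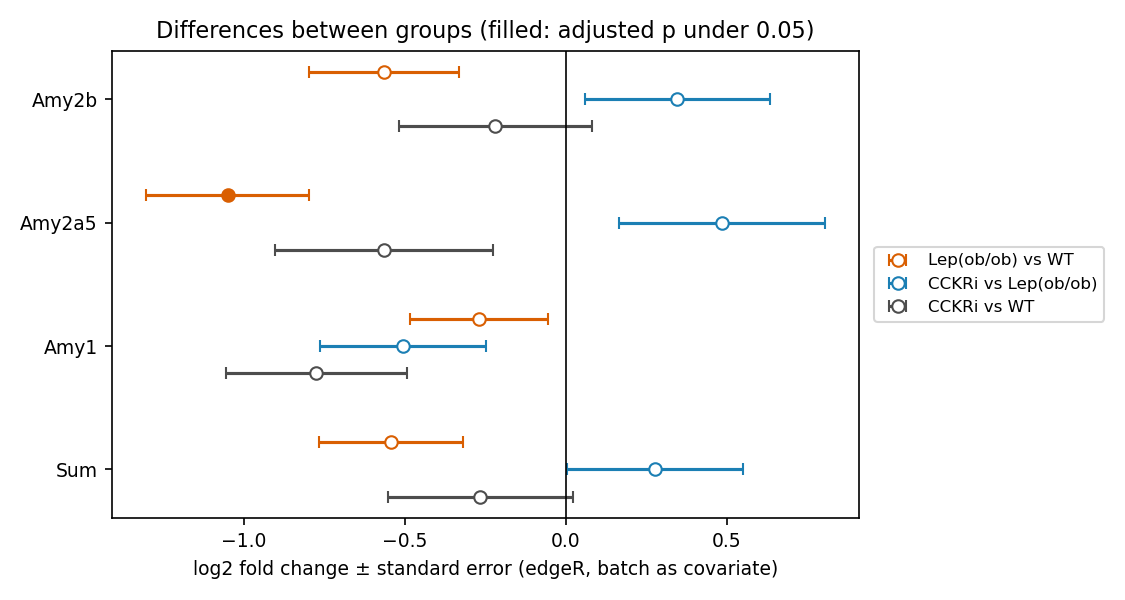
Log2 fold change with its standard error (x axis, edgeR with batch as covariate) for Amy2b, Amy2a5, Amy1 and their sum (y axis) in the 3 comparisons. Amy2a5 in OB against WT, at -1.05, is the only filled point, which marks an adjusted p under 0.05.

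Each drug was also set against all untreated groups. With the proglumide mice alone, the CCKRi difference from OB was 0.20 ± 0.36 for Amy2b, 0.28 ± 0.40 for Amy2a5 and -0.73 ± 0.30 for Amy1. With the lorglumide mice alone it was 0.47 ± 0.34 for Amy2b, 0.67 ± 0.39 for Amy2a5 and -0.30 ± 0.32 for Amy1. With either drug Amy2b and Amy2a5 were above and Amy1 below OB in these estimates, and none passed in edgeR (adjusted p from 0.380 to 0.893). Against WT mice the proglumide mice differed by -0.35 ± 0.38 for Amy2b, -0.76 ± 0.43 for Amy2a5, -0.99 ± 0.32 for Amy1 and -0.40 ± 0.37 for the sum (adjusted p = 0.749, 0.450, 0.154 and 0.690). The lorglumide mice differed from WT by -0.09 ± 0.36 for Amy2b, -0.37 ± 0.41 for Amy2a5, -0.56 ± 0.34 for Amy1 and -0.13 ± 0.35 for the sum (adjusted p = 0.954, 0.751, 0.486 and 0.923). All of these estimates were below 0 and none passed in edgeR, and the difference between the drugs was not tested.

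Amylase was then set against the other secreted enzymes of the same libraries, which needs no scaling between mice. Summed amylase reads per 1000 reads of the 23 other digestive enzymes were 0.803, 0.822 and 0.843 in WT and 0.754, 0.746, 0.662 and 0.760 in OB mice of batch A. In batch B they were 2.87 and 5.36 in WT, 1.67, 1.92 and 3.24 in OB, and 6.05, 4.88, 6.16 and 2.75 in CCKRi mice. All values of batch B lay above all values of batch A, and the groups were apart in batch A only.

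The OB mice had a lower ratio than WT by 0.45 on the log2 scale, a fold of 0.732, which did not pass a two-sided exact permutation test within batches (p = 0.0657, 350 relabellings, smallest possible p = 0.00286). The CCKRi mice had a higher ratio than OB mice of batch B by 1.12 (exact permutation p = 0.0857, smallest possible p = 0.0286). Against WT mice of batch B the difference was 0.27 (exact permutation p = 0.733), in a design of 4 against 2 that cannot go below 0.0667. Leaving out single mice gave differences from -0.18 to 0.72 in that comparison. Without mice 417, 461, 463 and 69 the difference between OB and WT was -0.17 (exact permutation p = 0.483) and that between CCKRi and OB 0.43, which sets 3 CCKRi mice against the single OB mouse left in batch B (464) and is given without a test. Between CCKRi and WT it was then 0.15, with 3 mice against 2. Within batches the OB difference was -0.17 in A (exact permutation p = 0.0286) and -0.85 in B (exact permutation p = 0.3). Leaving out WT mouse 58 or OB mouse 464 took the OB difference to -0.52 or -0.53, with exact permutation p = 0.00714 and 0.00476. Leaving out WT mouse 59 took it to -0.24 (exact permutation p = 0.143).

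**Figure D5:**
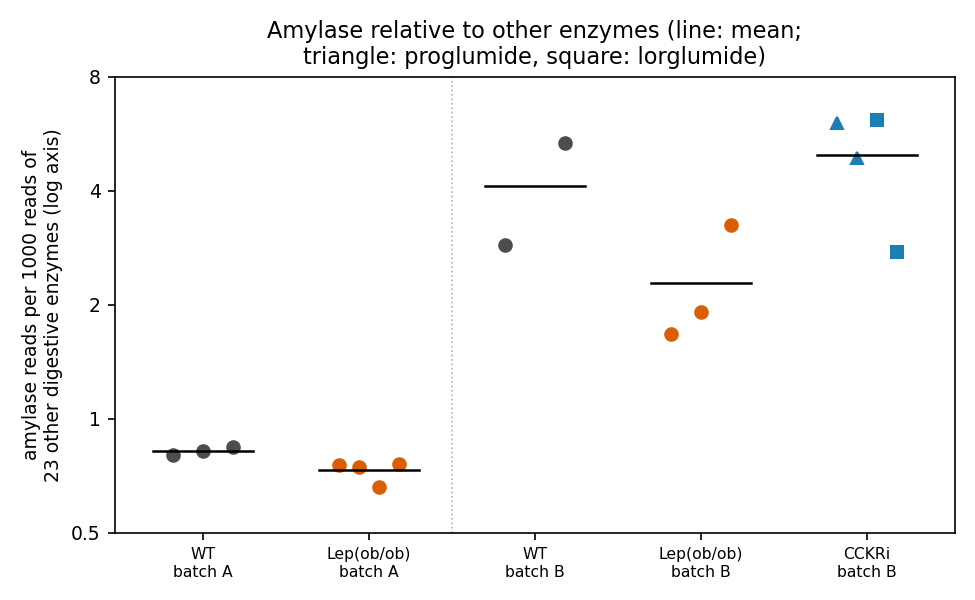
Summed amylase reads per 1000 reads of 23 other digestive enzymes (y axis, log scale) in each mouse by group and batch (x axis). Points are mice, lines are means, triangles are proglumide and squares lorglumide. Batch A lies between 0.662 and 0.843 and batch B between 1.67 and 6.16, and OB mice lie below WT mice without overlap in batch A only.

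The rows differed in how they varied together. Across the 7 mice of batch A the Pearson correlation of log2 CPM (counts per M reads) between Amy2a5 and Amy2b was 0.95, and across the 9 mice of batch B it was 0.99, but over all 16 mice it was 0.01. Amy1 and Amy2b had 0.97 in batch A, 0.10 in batch B and -0.32 over all mice. Amy1 and Amy2a5 had 0.91, 0.20 and 0.70. Amy2a5 and Amy2b thus varied together within both batches and Amy1 with them only in batch A, which are descriptions over mice that share groups, batches and paralogous sequence.

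The genes most alike to the summed amylase over all 16 mice were Rps26 (r = 0.978) and Rpl23a (0.958), which encode ribosomal proteins, Ndufa6 (0.952), a subunit of respiratory complex I, 1110019D14Rik (0.952) and Sec11c (0.949), a subunit of the signal peptidase complex. They were the highest of 13657 genes. Within batch A their correlation with amylase was 0.88 to 0.93 and within batch B 0.93 to 0.99, so they were also high within each batch. The mice share batch and depth, and no test was made.

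Of the other digestive enzymes, 4 of 23 passed the test in OB against WT mice. Of these 3 were lower and 1 was higher, beside 3.14% and 5.93% of all genes tested, with a median log2 fold change of -0.17 beside -0.02 for all genes and -0.57 for the 3 amylase members. The protease genes Ctrc (-1.43, edgeR, adjusted p = 0.00115) and Cela3a (-2.29, adjusted p = 0.00273) and the phospholipase gene Pla2g1b (-1.01) fell, and the trypsinogen gene Prss1 rose (3.72, adjusted p = 0.00142). Prss1 and Cela3a have close copies of their own, so their rows are uncertain. The 3 most abundant, the lipase gene Pnlip (-0.04) and the elastase genes Cela1 (-0.53) and Cela2a (-0.46), did not pass (edgeR, adjusted p from 0.331 to 0.962). In CCKRi against OB mice 0 of 23 passed, where 0.0586% of all genes did. Of the 23 estimates 20 were below 0 (median -0.51), beside 6996 of 13660 for all genes (median -0.01). The Amy2 estimates were above 0 and did not pass either. In CCKRi against WT mice 3 were lower and 1 higher, beside 1.35% and 4.22% of all genes tested, with a median of -0.77 beside -0.02 for all genes.

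Of the regulators of acinar enzyme genes, the PTF1 subunit Ptf1a fell in OB mice. Its log2 fold change was -1.03 ± 0.21 (SE, edgeR, adjusted p = 0.00561), and it was the 1 of 12 acinar transcription factors that passed (median -0.19), where 9.07% of all genes did in either direction and 3.14% were lower. Its partner Rbpjl differed by -0.36 ± 0.28 (adjusted p = 0.479) and was among the most abundant of the list with the secretory factors Xbp1 (0.15, adjusted p = 0.670) and Bhlha15 (-0.24, adjusted p = 0.615). Gata4 (-0.45, adjusted p = 0.154) and Foxa2 (-0.48, adjusted p = 0.149) did not pass. In CCKRi against OB mice none of the 12 passed, where 0.0586% of all genes did. Ptf1a was at 0.17 and Rbpjl at 0.71 ± 0.35 (edgeR, adjusted p = 0.367). In CCKRi against WT mice Gata4 fell (-0.91, adjusted p = 0.0365), and Ptf1a was at -0.86 (adjusted p = 0.0910).

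Insulin signalling genes were taken because acinar amylase depends on insulin. In OB against WT mice, 2 of 15 rose and none fell (median 0.02), where 5.93% of all genes tested rose and 3.14% fell. These were Pik3r1 (0.61 ± 0.16, edgeR, adjusted p = 0.0262), the regulatory subunit of phosphoinositide 3-kinase, and Foxo3 (0.59 ± 0.17, adjusted p = 0.0405), a transcription factor that insulin signalling restrains. The adaptor Irs2 differed by 0.78 ± 0.25 (adjusted p = 0.0665), and the kinases Akt1 (-0.18) and Rps6kb1 (-0.22) did not pass (adjusted p = 0.467 and 0.416). None of the 15 passed in either CCKRi comparison. The insulin genes themselves were higher in OB mice, Ins1 by 2.27 ± 0.50 and Ins2 by 2.49 ± 0.47 (adjusted p = 0.00870 and 0.00327), with 6 of 9 islet markers called, all of them higher.

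Among receptors for signals that make acinar cells secrete, the CCK receptor gene Cckar differed by -0.55 ± 0.25 in OB mice (edgeR, adjusted p = 0.182). Of 6 receptors tested, 2 rose and 1 fell, beside 5.93% and 3.14% of all genes. The muscarinic receptor gene Chrm1 (1.09, adjusted p = 0.0132) and the VIP receptor gene Vipr1 (0.86, adjusted p = 0.0189) rose, the secretin receptor gene Sctr fell (-1.39, adjusted p = 0.0160), and Chrm3 was at 0.06. Cckbr had at most 9 reads and was not tested. In CCKRi mice none of the 6 passed against either group, where 0.0586% of all genes did against OB and 5.57% against WT. Cckar was at -0.30 against OB (edgeR, adjusted p = 0.641) and -0.85 against WT (adjusted p = 0.169).

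Of 5 other genes of starch and sugar digestion, 3 had almost no reads and 2 were tested. Sis, Lct and Treh, which encode brush border disaccharidases of the intestine, had at most 2 reads in any mouse and were not tested. Mgam, the gene of maltase-glucoamylase, had 12 to 26 reads and differed by -0.42 ± 0.26 in OB mice (edgeR, adjusted p = 0.361). Gaa, the lysosomal alpha-glucosidase gene, had 91 to 861 reads and rose by 0.65 ± 0.18 (adjusted p = 0.0299), against the direction of the amylase rows. It differed by -0.64 ± 0.21 in CCKRi against OB mice (adjusted p = 0.270).

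Of the remaining marker lists, 1 of 7 adipocyte markers fell in OB mice (Cfd, -3.15), where 3.14% of all genes fell, while 5 of the 7 had estimates above 0 that did not pass (list median 1.43, Cidec at 2.24, adjusted p = 0.0849), and 0 of 6 macrophage, 0 of 5 lymph node and 0 of 1 salivary markers passed in edgeR. None of these lists had a call in CCKRi against OB mice, where 0.0586% of all genes were called. Against WT mice, CCKRi mice had 7 of 9 islet markers higher and 1 of 7 adipocyte markers lower, where 4.22% of all genes were higher and 1.35% lower. The part of these lists in the amylase values was not tested beyond the fits without the 4 mice.

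The lists were fitted again without mice 417, 461, 463 and 69, an alternative chosen after seeing the data. In OB against WT mice 7.48% of all genes were then higher and 4.83% lower. Ptf1a was again the 1 transcription factor called (-0.91 ± 0.15, edgeR, adjusted p = 3.35e-04), and Ctrc, Cela3a, Pla2g1b and Prss1 kept their calls, with Prss3, another trypsinogen gene, also higher (0.97). Pik3r1, Foxo3, Chrm1 and Vipr1 kept theirs, while Sctr (-1.17, adjusted p = 0.0891) and Gaa (0.39, adjusted p = 0.0511) did not pass. Rbpjl was at 0.09 in place of -0.36. Of the marker lists, 8 of 9 islet markers were higher, 2 of 7 adipocyte markers lower (Cfd and Retn) and 1 of 6 macrophage markers lower (Lyz2). The median of the adipocyte markers was 0.10 in place of 1.43, with Cidec at 0.84 in place of 2.24. In CCKRi against OB mice none of the listed genes passed, where 0.0147% of all genes were higher and 0.0586% lower. Rbpjl was at 0.12 in place of 0.71 there, and the median of the macrophage markers was -0.34 in place of -1.18. In CCKRi against WT mice, where 6.31% of all genes were higher and 3.33% lower, 1 enzyme was higher and 4 were lower, Ptf1a (-0.66, edgeR, adjusted p = 0.0273) and Gata4 fell, and 4 insulin signalling genes rose and 1 fell. All 9 islet markers were higher there, with 1 adipocyte and 3 macrophage markers lower and the receptor gene Vipr1 higher.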

How the data were processed

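Whole-pancreas polyA RNA was sequenced by the authors as strand-specific paired 100-base reads. Per the submitters' processing notes, reads were trimmed with Trim Galore 0.6.7 and cutadapt 3.5 and aligned to mm10 with STAR 2.7.9. The read counter, its strand setting, its annotation and its treatment of multiply aligned reads are not given in the sources used here. The authors deposited raw counts per gene symbol and a normalized signal, in which every count of a mouse is scaled by the same factor (0.617 to 1.44, checked on the values), without batch correction. An identifier column was not used.

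Raw counts were analysed with edgeR 4.0.16 in R 4.3.3 (limma 3.58.1 as a dependency), with TMM scaling and filterByExpr, 3 groups and the batch in 1 model of all 16 mice, the quasi-likelihood test and Benjamini-Hochberg adjustment over all genes tested, with 0.05 as threshold. For the sum, the amylase rows were replaced by their total. Log2 CPM used a prior count of 2. The model was checked on simulated counts with changes in OB mice only, the same dispersion for every gene and no batch effect. This does not check the comparisons under batch differences. Permutation tests were exact and two-sided (Python 3.11.15, numpy 2.4.6, scipy 1.17.1, pandas 2.3.3). Sequence comparisons used GENCODE M21 transcripts and RefSeq windows (GRCm38.p6), in which all 7 genes matched by symbol. Floors of 3 reads cover counting error only.

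Members and lists were chosen with earlier results of these data known. Every member is named. From each list of pathway genes, the 3 with the smallest adjusted p in OB against WT and the 3 most abundant are named, with the called Pla2g1b added after its value was seen; lists of cell type markers are given by counts and scores with examples. Alike genes are the 5 with the highest correlation. Alternatives were no batch covariate, DESeq2 1.42.0, RLE scaling, scaling without the 50 most counted genes, no low-count filter, fits of the compared groups only, single batches, single drugs, no mice 417, 461, 463 and 69, each mouse left out, the Amy2 rows alone, and other denominators or no strata for the ratio. The batch term was added after the data had been seen. Duct markers are not reported here.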

Additional observations from a re-analysis of the deposited data

How the results depend on the processing

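Depth limits Amy2a5 most, with 34 to 284 reads per mouse. The sequence shared among copies limits all Amy2 rows and, through them, the sum and the ratio to other enzymes. No paired analysis was possible because the groups have no mouse number in common. The count of amylase genes called in OB against WT, 1 in the main analysis, was 0 without the batch covariate and 0 in batch B alone (Amy2a5 at -1.11 and -0.90, edgeR adjusted p = 0.0831 and 0.323), and stayed 1 with DESeq2, both other scalings, no filter, only the groups compared, batch A alone, no mice 417, 461, 463 and 69, and each mouse left out. Without the batch covariate, which mixes batch and treatment since all CCKRi mice were in batch B, Amy2a5 in CCKRi against OB turned to -0.26, and in CCKRi against WT Amy2b turned to 0.25, the sum to 0.12, and 1 gene was called (Amy1, -1.09, adjusted p = 0.0243). The OB ratio of amylase to other enzymes passed with all other reads as denominator (-0.45, exact permutation p = 0.0429) and in batch A alone (-0.17, p = 0.0286). The CCKRi ratio against OB passed without strata (2.02, exact permutation p = 0.00909), but that setting adds the OB mice of batch A. All ratios of batch A lay below all of batch B, so the value mixes batch and treatment. On leaving out each mouse, the sum ranged from -0.63 to -0.41 in OB against WT, 0.04 to 0.47 in CCKRi against OB and -0.37 to -0.12 in CCKRi against WT. The number of called genes in CCKRi against WT ranged from 0 to 1, and in the other 2 comparisons it stayed at 1 and 0. The ratio ranged from -0.53 to -0.24 in OB against WT, 0.92 to 1.40 in CCKRi against OB and -0.18 to 0.72 in CCKRi against WT, where it turned negative without WT mouse 58. The causes were not tested. Apart from these, and from Amy1 and the ratio on leaving out single mice as given in the report, each amylase result kept its direction and its side of the threshold. Over all genes tested, the number called ran over the alternatives from 8 to 1695 in OB against WT (main 1239), from 0 to 570 in CCKRi against OB (main 8) and from 13 to 1428 in CCKRi against WT (main 761).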
